A study of Drosophila pseudoobscura with 4 samples.

Results

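The nervous system microRNAs of *D. pseudoobscura* considered here are the precursors dps-mir-124, dps-mir-137, dps-mir-190, dps-mir-219, dps-mir-274, dps-mir-284, dps-mir-315 and dps-mir-1000. These 8 of the 231 microRNAs in the count tables were taken by name, for their known expression or roles in neurons or glia. In 7 of the 8 at least 1 read was counted, and the same 7 were among the 84 microRNAs tested. The groups were males and females, with 2 samples each of adult flies aged 7 days. All came from a wild-derived stock reared at 18 °C under 12 h of light and 12 h of dark. No allele or treatment separated the groups, and according to the study the females were virgin. Libraries of small RNAs were read on a MiSeq, a benchtop sequencer, with a male and a female library in each of 2 runs, called run 1 and run 2. Nothing in the labels says that samples of the same sex came from separate cultures, so the p-values below measure the spread between these samples.

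MicroRNAs are short RNAs that pair with messenger RNAs, mainly through a seed region near their 5′ end, and lower the output of those messengers. In flies, several are found largely in neurons or glia, where they tune synapses, neurotransmitter release and the survival of neurons. An extract of adult flies mixes the nervous system with muscle, gut, fat body and gonads, so that fewer neural cells and less of a microRNA per neural cell cannot be told apart in these counts.

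Depth was 5697 (run 1) and 67076 (run 2) reads in males, against 7111 and 42754 in females. Wherever values of both runs are given, run 1 comes first. Levels are read counts brought to a common library size (CPM) by TMM scaling, which assumes that most microRNAs do not differ between libraries. A microRNA is counted on its precursor, and each read spans a mature microRNA, so levels were not divided by length. The precursors of the 8 members are 84 to 111 bases long. A floor of 3 reads stood for 597 and 43.4 CPM in males, against 493 and 54.6 CPM in females. The libraries carried no molecular identifiers, so reads are not counts of separate molecules, and this floor and all intervals on reads cover counting error only. The ovary microRNAs dps-mir-318 and dps-mir-994 together had 2 and 6 reads in males, against 335 and 3471 in females, 4.71% and 8.12% of the female reads. The muscle microRNA dps-mir-133 had 6 and 181 reads in males, against 3 and 50 in females, and passed the threshold of edgeR (an adjusted p under 0.1 and a difference of at least 25%) as higher in males (log2 fold change 1.46, standard error 0.34, adjusted p = 0.0651), but not that of DESeq2 (adjusted p = 0.265) or limma-voom (adjusted p = 0.158). The part of ovary and muscle RNA in the levels of the nervous system microRNAs was not tested.

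Together, the 8 nervous system microRNAs took a small part of each library, and within each run a larger part in the male than in the female library. In males they had 56 and 1113 reads, which is 0.983% (95% exact Clopper-Pearson interval 0.743% to 1.28%) and 1.66% (1.56% to 1.76%) of the reads. In females they had 38 and 479 reads, which is 0.534% (0.378% to 0.733%) and 1.12% (1.02% to 1.22%). As shares of reads the groups overlapped, since the run 2 female library was above the run 1 male library. As levels, the sum was 11145 and 16101 CPM in males and 6239 and 8723 CPM in females, so on this scale both male libraries were above both female libraries. That order also held with the size factors of DESeq2, but the groups overlapped with plain library totals and with TMM factors from the subset of microRNAs kept by the filterByExpr function of edgeR. The summed TMM-scaled level averaged 13623 ± 3504 CPM in males and 7481 ± 1756 CPM in females (SD, n = 2 each).

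Within the runs, the ratio of the male to the female sum was 1.79 (95% exact interval 1.16 to 2.77) in run 1 and 1.85 (1.66 to 2.06) in run 2. On this scale the median male to female ratio over the 84 tested microRNAs, with 0.5 reads added to each count, was 1.21 in run 1 and 1.53 in run 2. The run 1 value is the one that any microRNA with equal reads in both libraries takes, including dps-mir-304 with 0 reads in both. It is set by the scaling and is no measure of a lean to males. In run 2, 61 of the 84 had a ratio above 1 with TMM, and this count and the run 2 median depend on the scaling too. Fitted over both runs, the median log2 fold change of the 84 was 0.46 with TMM. With TMM factors from the filterByExpr microRNAs it was 0.014. The scaling moved the ratio of the sums. It was 1.84 in run 1 and 1.48 in run 2 with plain library totals, 1.51 and 1.36 with the size factors of DESeq2, and 1.51 and 1.248 with TMM factors from the filterByExpr microRNAs. The interval in run 1 reached below 1 in the last 2 of these scalings, with lower ends of 0.982 and 0.980. With total counts taken without the reads of dps-mir-318 and dps-mir-994, a scaling chosen after seeing the data, the mean log2 ratio over the 2 runs was 0.63, against 0.86 with TMM.

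**Figure D1:**
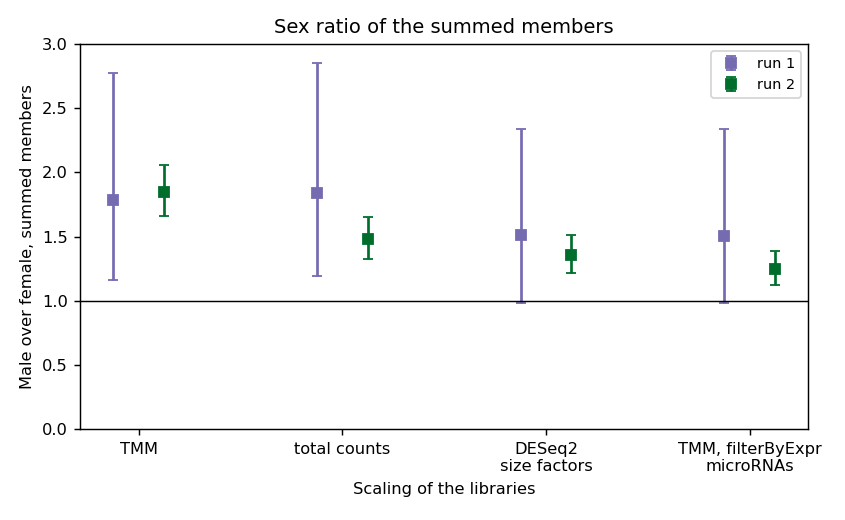
Ratio of the male to the female summed level of the 8 nervous system microRNAs (vertical axis, linear) in each run under 4 scalings of the libraries (horizontal axis). Squares are the ratios and bars the 95% exact intervals, which cover counting error only. All 8 ratios are above 1, from 1.248 to 1.85, and the intervals of run 1 are the wider ones.

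By mean level, dps-mir-284 and dps-mir-274 were the largest parts of the sum. These made up 57.1% and 23.2% of the members' reads in the run 1 male library and 38.5% and 37.0% in the run 2 male library. In females they made up 42.1% and 7.89% in run 1, and 30.9% and 44.5% in run 2. Without dps-mir-284, the ratio of the male to the female sum was 1.32 (0.710 to 2.47) in run 1 and 1.64 (1.44 to 1.88) in run 2 with TMM, and the groups overlapped on all 4 scalings. With TMM factors from the filterByExpr microRNAs, the run 2 ratio without dps-mir-284 was 1.11 (0.972 to 1.27).

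**Figure D2:**
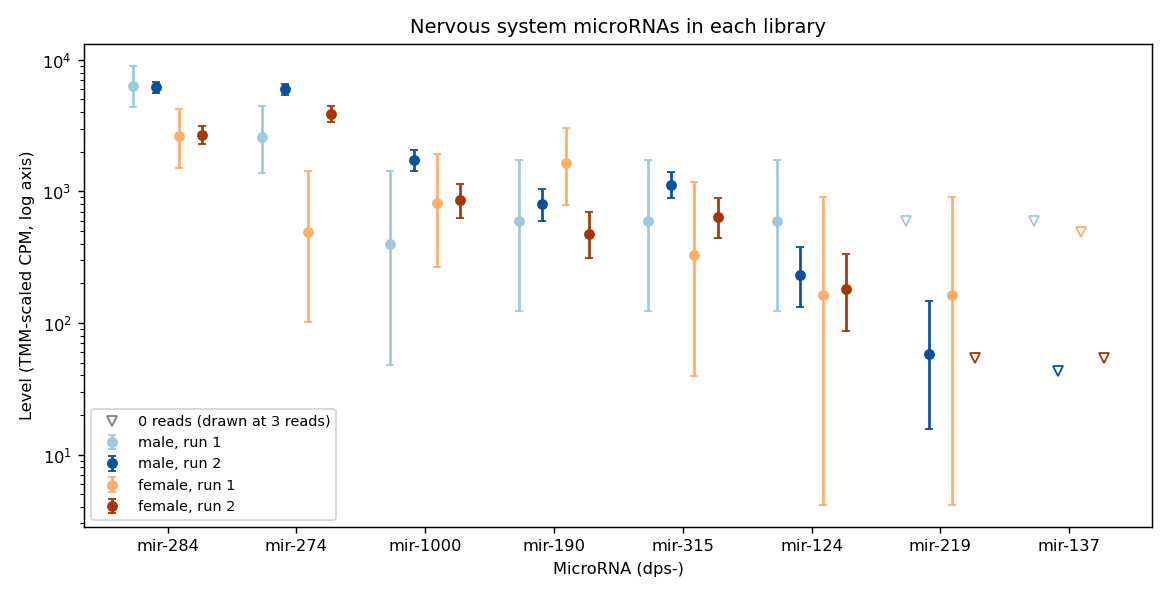
Level of each nervous system microRNA (vertical axis, TMM-scaled CPM on a log axis) in the 4 libraries, ordered by mean level. Points are libraries, bars are 95% exact intervals of counting error, and open triangles mark libraries with 0 reads, drawn at the level of 3 reads. For dps-mir-284 the male points at 6369 and 6206 CPM stand above the female points at 2627 and 2695 CPM.

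In the differential expression analysis with run and sex in the model, none of the 7 tested members was called at an adjusted p under 0.1 and a difference of at least 25% (quasi-likelihood test of edgeR, p-values adjusted by Benjamini-Hochberg over 84 microRNAs). Over all tested microRNAs 14.3% were called, with 7.14% higher in males and 7.14% higher in females. DESeq2 and limma-voom also called 0 of the 7. An unadjusted p under 0.05 was reached by 2 members with edgeR (dps-mir-284 and dps-mir-315, both higher in males), against 17.9% of all tested microRNAs in that direction, and by 1 member each with DESeq2 and limma-voom. Fold changes are male against female. All 7 had a positive log2 fold change, against 67.9% of all tested microRNAs, and 6 of the 7 were positive with each of the other 3 scalings, where dps-mir-190 turned negative. With limma-voom 5 were positive. The mean TMM-scaled level was nevertheless higher in females for dps-mir-219 (82.1 CPM, against 28.9 CPM in males) and for dps-mir-190 (1058 CPM, against 696 CPM in males). When 1 library was left out, with no run term, 2 of the 7 were positive without the run 2 male library, 4 without the run 1 female library, 5 without the run 2 female library and 6 without the run 1 male library. The median over the 84 moved too, and was -0.40, -0.081, 0.97 and 0.16 in these fits, in the same order. With all libraries and the run term, the median of the 7 was 0.83, against 0.46 over the 84. The median over the 84 was 0.28 with plain library totals, 0.087 with the size factors of DESeq2 and 0.014 with TMM factors from the filterByExpr microRNAs, so fold changes are also given relative to that median. By that measure 6 of the 7 were above the median of all tested microRNAs under each of the 4 scalings, against 5 with DESeq2 and with limma-voom, 4 when every microRNA with a read was tested, and 3 to 5 when a library was left out, with 3 without the run 2 male library.

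**Figure D3:**
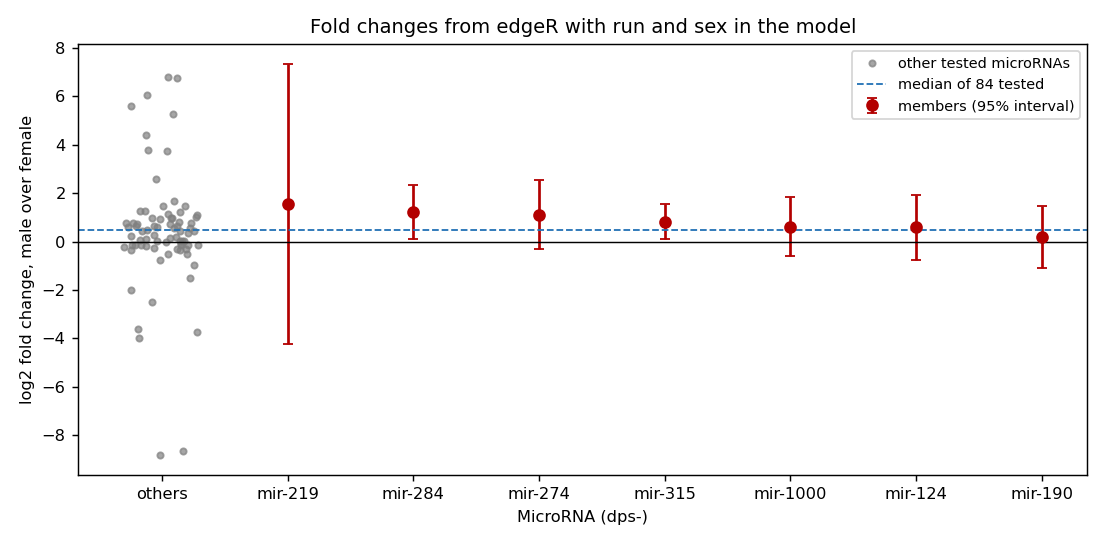
Log2 fold change of male over female levels from edgeR (vertical axis) for the 7 tested nervous system microRNAs (red, with 95% intervals from the test) and the other tested microRNAs (gray, spread sideways for display). The dashed line is the median of all 84, 0.46, and the members lie between 0.17 and 1.56, inside the range of the others.

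Among the members that act at the synapse in *D. melanogaster* are dps-mir-284, whose ortholog lowers glutamate receptor subunits at the neuromuscular junction, and dps-mir-1000, whose ortholog lowers the vesicular glutamate transporter in neurons. The first was the most abundant member by mean level. Its precursor lies on chromosome 2 from 1942455 to 1942554 of the assembly UCI_Dpse_MV25, outside the annotated gene spans and 654 bases from the span of Octbeta2R, which encodes an octopamine receptor. It had 32 and 429 reads in males, against 16 and 148 in females. Its level was 6369 and 6206 CPM in males and 2627 and 2695 CPM in females, and it ranked 16 and 18 of the 231 microRNAs in males, against 27 in both runs in females. The groups did not overlap on any of the 4 scalings. Within each sex the TMM-scaled levels of the runs were alike, with a ratio of run 2 to run 1 of 0.974 (0.680 to 1.44) in males and 1.03 (0.611 to 1.84) in females. The male level was 2.42 times the female level (1.29 to 4.73) in run 1 and 2.30 times (1.91 to 2.79) in run 2. On the other 3 scalings these ratios were between 1.56 and 2.50, with lower ends of the interval from 1.09 to 1.53. The log2 fold change was 1.23 (standard error 0.43, 95% interval 0.12 to 2.35, adjusted p = 0.160, unadjusted p = 0.0362, edgeR), or 0.77 above the median of all tested microRNAs. The adjusted p of dps-mir-284 stayed above 0.1 under all 13 alternatives, between 0.109 (DESeq2) and 0.985, and its fold change was positive in each. With 1 library left out and no run term, the log2 fold change of dps-mir-284 ran from 0.59 (without the run 1 female library) to 1.42 (without the run 2 female library), against 1.24 with all libraries in that fit.

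For dps-mir-1000, reads were 2 and 119 in males, against 5 and 47 in females. Its precursor is at 22035532 to 22035622 of chromosome 2, inside the span of msi, the musashi gene of an RNA-binding protein. Its level was 398 and 1722 CPM in males and 821 and 856 CPM in females, so the groups overlapped, with the male libraries at both ends. The male to female ratio was 0.485 (0.0462 to 2.96) in run 1, on 7 reads, and 2.01 (1.42 to 2.88) in run 2. On the other 3 scalings the run 2 ratio was between 1.36 and 1.61, and the lowest, with TMM factors from the filterByExpr microRNAs, had an interval of 0.963 to 1.95. The log2 fold change was 0.62 (standard error 0.47, 95% interval -0.60 to 1.83, adjusted p = 0.509, edgeR), and it was -0.027 with limma-voom. In fits without the run term it was -1.48 without the run 2 male library and -0.095 without the run 1 female library. Taken from the median of all tested microRNAs, these values were -1.08 and -0.013.

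The member with the second highest mean level was dps-mir-274. In *D. melanogaster* its ortholog is released by glia and acts on synapses and on tracheal branches. The precursor lies on XR, the arm of the X that was an autosome in the ancestor (the neo-X), at 52691329 to 52691425 of the X. It is inside the span of the protein-coding gene LOC26532051, and its start overlaps the end of the span of LOC26533549. It had 13 and 412 reads in males, against 3 and 213 in females, or 2587 and 5960 CPM in males and 493 and 3879 CPM in females. The groups overlapped, since the run 2 female library was above the run 1 male library. Both run 2 libraries were higher than those of run 1, by 2.30 times (1.33 to 4.36) in males and 7.88 times (2.66 to 38.5) in females. Inside each run the male library was the higher one, by 5.25 times (1.44 to 28.7) in run 1 and 1.54 times (1.30 to 1.82) in run 2. The interval in run 2 includes the median ratio of 1.53 over all tested microRNAs in that run. On other scalings the run 2 ratio was 1.23 (1.04 to 1.46) with plain library totals, 1.13 (0.956 to 1.34) with the size factors of DESeq2 and 1.04 (0.878 to 1.23) with TMM factors from the filterByExpr microRNAs, and the last 2 intervals include 1. The log2 fold change was 1.12 (standard error 0.56, 95% interval -0.33 to 2.56, adjusted p = 0.280, edgeR). With the run term dropped, it was -0.42 when the run 2 male library was left out and -0.40 when the run 1 female library was. Relative to the median of all tested microRNAs, these values were -0.017 and -0.32.

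The ratio of dps-mir-284 to dps-mir-274 within a library does not depend on the scaling. Of the reads of the pair, dps-mir-284 took 71.1% (55.7% to 83.6%) and 51.0% (47.6% to 54.4%) in males, against 84.2% (60.4% to 96.6%) and 41.0% (35.9% to 46.3%) in females. The run 1 libraries were the high ones in both sexes, and their intervals did not overlap those of run 2 in the same sex. Between the sexes, the intervals overlapped in run 1. In run 2 they did not, and the male share was higher. The run 1 libraries had 45 male and 19 female reads of the pair, against 841 and 361 in run 2.

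**Figure D4:**
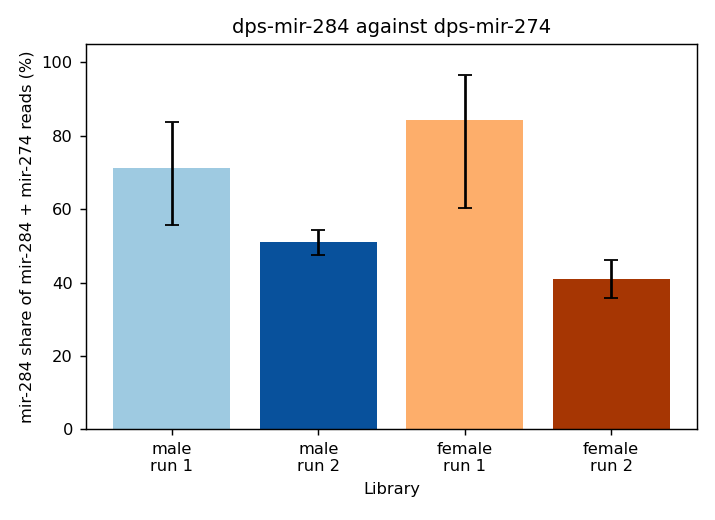
Share of dps-mir-284 in the reads of dps-mir-284 and dps-mir-274 together (vertical axis, percent) in each library. Bars are the shares and whiskers the 95% exact intervals, and the run 1 libraries, at 71.1% in males and 84.2% in females, stand above the run 2 libraries, at 51.0% in males and 41.0% in females.

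The member best known as a neuronal marker, dps-mir-124, whose family is enriched in neurons across bilaterian animals, was far less abundant. It lies on chromosome 4 from 28800135 to 28800232, outside annotated gene spans. Its reads were 3 and 16 in males, against 1 and 10 in females. These are 597 and 231 CPM in males and 164 and 182 CPM in females. The male libraries were above the female ones on this scale, with the run 2 libraries next to each other in the order, on 16 male against 10 female reads. In run 1 the male value was at the floor of 3 reads, and the female value, on 1 read, was below it. The ratio was 3.64 (0.292 to 191) in run 1 and 1.27 (0.542 to 3.13) in run 2, and both intervals include 1. The run 2 ratio was below 1 with the size factors of DESeq2 (0.936) and with TMM factors from the filterByExpr microRNAs (0.859), and the groups then overlapped. The log2 fold change was 0.59 (standard error 0.52, 95% interval -0.74 to 1.92, adjusted p = 0.578, edgeR). With TMM, this member and dps-mir-284 were the 2 of 7 for which both male libraries were above both female libraries, against 27.4% of all tested microRNAs, and with plain library totals they were again the 2 of 7, against 22.6%. With the size factors of DESeq2 dps-mir-284 was the 1 of 7, against 21.4%, and with TMM factors from the filterByExpr microRNAs it was again 1 of 7, against 17.9%.

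A further member, dps-mir-315, belongs to a family whose *D. melanogaster* ortholog, expressed in the embryonic brain and nerve cord, raises Wingless signaling by lowering Axin and Notum. It lies on XR at 46622272 to 46622355 of the X, outside annotated gene spans. It had 3 and 78 reads in males, against 2 and 35 in females, or 597 and 1128 CPM in males and 328 and 637 CPM in females. The run 2 female library was above the run 1 male library, so the groups overlapped. The male to female ratio was 1.82 (0.208 to 21.8) in run 1, on 5 reads, and 1.77 (1.17 to 2.72) in run 2. The run 1 interval is too wide to say whether the runs were alike. On the other 3 scalings the run 2 ratio was between 1.20 and 1.42, with lower ends of the interval from 0.794 to 0.942. The log2 fold change was 0.83 (standard error 0.28, 95% interval 0.09 to 1.56, unadjusted p = 0.0338, adjusted p = 0.160, edgeR), 0.36 above the median of all tested microRNAs. Its standard error was the smallest of the 7, although run 1 held 5 of its reads. Without the run term, the log2 fold change was -0.29 when the run 2 male library was left out and -0.045 when the run 1 female library was. The median of all tested microRNAs was also below 0 in these fits, and dps-mir-315 was 0.11 and 0.037 above it.

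For dps-mir-190, conserved between insects and vertebrates, the male to female ratio was below 1 in run 1 and above 1 in run 2. Its precursor lies on XR at 67070433 to 67070526 of the X, inside the span of rhea, the gene of talin, which links integrins to the cytoskeleton. It had 3 and 55 reads in males, against 10 and 26 in females, or 597 and 796 CPM in males and 1642 and 473 CPM in females. The run 1 female library was the highest and the run 2 female library the lowest of the 4. In females run 2 was 0.288 times run 1 (0.135 to 0.670), and in males 1.33 times (0.433 to 6.66). The male to female ratio was 0.364 (0.0643 to 1.41) in run 1 and 1.68 (1.04 to 2.79) in run 2. The run 1 interval includes 1 and overlaps that of run 2, so opposite directions were not shown. The run 2 ratio was between 1.14 and 1.35 on the other 3 scalings, where each interval includes 1. The log2 fold change was 0.17 (standard error 0.50, 95% interval -1.11 to 1.45, adjusted p = 0.925, edgeR), which is 0.29 below the median of all tested microRNAs, and it was negative with DESeq2 (-0.46) and with limma-voom (-0.53).

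**Figure D5:**
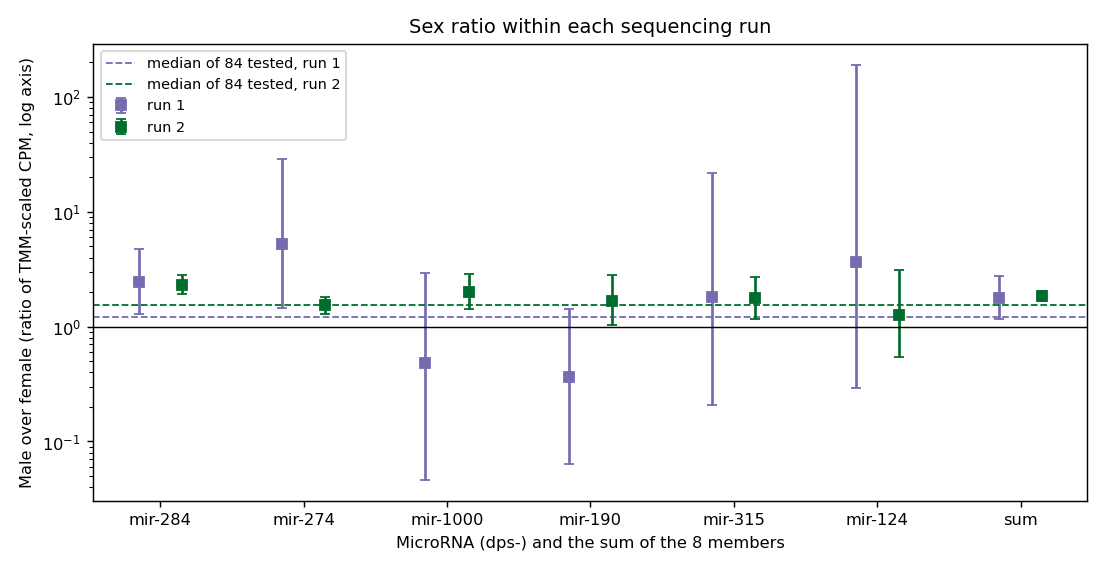
Ratio of the male to the female level (vertical axis, log scale) within each run for the 6 members with reads in all libraries and for the sum of the 8. Squares are ratios and bars 95% exact intervals of counting error. Dashed lines are the median ratio of the 84 tested microRNAs in each run, 1.21 and 1.53, with 0.5 reads added to each count. The run 1 line is the ratio of a microRNA with equal reads in both libraries, and both lines depend on the scaling, here TMM. For dps-mir-284 the ratios are 2.42 and 2.30, while dps-mir-1000 and dps-mir-190 are below 1 in run 1 and above 1 in run 2.

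The remaining members were at or near 0. The precursor of dps-mir-219, a family known in vertebrates for the maturation of myelinating glia, lies on XR at 51974353 to 51974452 of the X, outside annotated gene spans. It had 0 and 4 reads in males, against 1 and 0 in females. A count of 0, taken as at most 3 reads, allows a share of up to 0.0527% in the run 1 male library and 0.00702% in the run 2 female library. The upper ends of the exact 95% interval are higher, at 0.0647% and 0.00863%. The run 1 libraries, with 0 male reads and 1 female read, allow no order. In run 2, 4 male reads against 0 female reads gave a lower end of 0.524 for the ratio, so that no difference was detectable at this depth (95% interval of the log2 fold change -4.23 to 7.35, adjusted p = 0.764, edgeR). The fitted value turned negative without either run 2 library, at -2.28 without the male one and -1.36 without the female one, in fits with no run term. This member passed the base mean of 1 by a small margin (1.13). No read of dps-mir-137, a conserved brain microRNA known in vertebrates for the maturation of neurons, was counted in any library. Its precursor lies on chromosome 3 from 20130574 to 20130684, outside annotated gene spans. The limits that 0 reads allow, again taken as 3 reads, were 0.0527% and 0.00447% of the reads in males, against 0.0422% and 0.00702% in females. The upper ends of the exact 95% interval were 0.0647% and 0.00550% in males, against 0.0519% and 0.00863% in females. This member, dps-mir-137, was not tested.

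Neighbors in the order of the levels were told apart in the deeper run only. In the run 2 male library, dps-mir-284 and dps-mir-274 did not differ beyond their counting intervals, and both were above dps-mir-1000. There dps-mir-1000 was above dps-mir-315, which was not distinct from dps-mir-190, and both were above dps-mir-124. In the run 2 female library dps-mir-274 was above dps-mir-284, and dps-mir-284 above dps-mir-1000. The levels of dps-mir-1000, dps-mir-315, dps-mir-190 and dps-mir-124 followed in this order, each not distinct from the next. In run 1 no neighbor in the order was distinct from the next in either sex, and dps-mir-190 was second in the female library with 10 reads against 16 of dps-mir-284. Further apart, dps-mir-284, at 0.385% to 0.792% of the run 1 male reads, was above dps-mir-1000, dps-mir-124, dps-mir-190 and dps-mir-315, with upper ends of 0.127% to 0.154%. In the run 1 female library dps-mir-284, at 0.129% to 0.365%, was above dps-mir-274, at 0.00870% to 0.123%, the reverse of the run 2 female order.

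By chromosome, the 4 members on the neo-X arm had a median log2 fold change of 0.97, with a range of 0.17 to 1.56. These include dps-mir-219, with 5 reads in all. The 3 tested members on autosomes had a median of 0.62, with a range of 0.59 to 1.23. Summed, the neo-X members had 3781 and 7942 CPM in males and 2627 and 4990 CPM in females, and the groups overlapped. The autosomal members summed to 7364 and 8159 CPM in males and 3612 and 3733 CPM in females, and the groups did not overlap on any of the 4 scalings. Most of the autosomal sum was dps-mir-284. With TMM, from run 1 to run 2 the neo-X sum was higher by 2.10 times (1.33 to 3.52) in males and 1.90 times (1.15 to 3.37) in females. The autosomal sum was 1.11 times (0.794 to 1.59) as high in males and 1.03 times (0.664 to 1.69) in females.

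Among the other microRNAs with known neural or sensory roles, a list of 15, 13 were found by name in the tables and 9 were tested. None of the 9 was called in either direction by edgeR, with a lowest adjusted p of 0.203, against 14.3% of all tested microRNAs called. A positive log2 fold change was found for 7 of the 9, against 67.9% of all tested microRNAs. The median of the 9 was 0.55, with a range of -0.36 to 1.66, against 0.46 over all tested microRNAs. The low end of that range was dps-mir-263a, with 176 and 1772 reads in males, against 279 and 1786 in females. The developmental timing microRNA dps-let-7 had 19 and 287 reads in males, against 12 and 118 in females. With TMM, both male libraries were above both female libraries for 3 of the 9, of which dps-let-7 was 1. Over all tested microRNAs this share was 27.4%.

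Over the 4 libraries, the patterns most like dps-mir-284 among 47 other microRNAs of base mean 10 or more were those of dps-let-7 and dps-mir-2575. The root mean square difference in centred log2 CPM was 0.16 for dps-let-7 and 0.20 for dps-mir-2575. The patterns most like dps-mir-274 were those of dps-mir-986, at 0.56, and dps-mir-210a, at 0.62. With 4 points and 2 runs that differ, these likenesses are a description.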

How the data were processed

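The data were read counts of microRNAs from small RNA libraries of adult *D. pseudoobscura*, with 2 male and 2 female samples. The author removed adapters (Cutadapt), aligned reads to the genome (HISAT2), counted them on annotated precursors (featureCounts), and left out microRNAs with identical copies elsewhere in the genome. The deposited counts per microRNA are raw, and each table holds 231 microRNAs after leaving out 1 row without a name or value.

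Samples were grouped by sex from their titles. The replicate number was taken as the sequencing run, since the study sequenced 1 male and 1 female sample in each run. The difference between run 2 and run 1 in males and that in females had a Pearson r of 0.617 across the 84 tested microRNAs. Both run 1 libraries were also the shallow ones, so this value cannot tell a shared run from shared depth. Counts were tested with edgeR 4.0.16 in R 4.3.3 (TMM, glmQLFit and glmQLFTest, run and sex in the model) on those with a DESeq2 base mean of 1 or more. A microRNA was called at an adjusted p under 0.1 and a difference of at least 25%. DESeq2 1.42.0 (local fit) and limma 3.58.1 (voom) were alternatives, as were other scalings, other filters, the model without the run, and leaving out each sample. The edgeR fit was tested on simulated data. Intervals at the 95% level are exact binomial ones from scipy 1.17.1 and cover counting error only. Library totals ran from 5697 to 67076 reads.

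All 8 members were named by rule. The members and the lists were chosen with earlier results of these data known. The expression patterns most like the members were taken, for the 2 members of highest mean level, as the 2 other microRNAs of base mean 10 or more with the smallest root mean square difference in centred log2 CPM, with 0.5 reads added. Positions are those of the study's annotation, and gene spans, which give no exons, come from RefSeq for assembly UCI_Dpse_MV25. Sequences were not used here.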

Additional observations from a re-analysis of the deposited data

How the results depend on the processing

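No nervous system microRNA was called under any of the 13 alternatives, with a lowest adjusted p of 0.109, and 69 of their 87 fold changes kept the direction. For dps-mir-190 the log2 fold change was -0.46 with DESeq2, -0.53 with limma-voom, -0.38 with no replicate block, -0.19 with DESeq2's size factors, -0.0059 with total counts only and -0.27 with TMM factors from the filterByExpr microRNAs. For dps-mir-1000 it was -0.027 with limma-voom. When each sample was left out in turn, with no replicate block, log2 fold changes ran from -0.98 to 0.027 for dps-mir-190, -1.48 to 0.75 for dps-mir-1000, -0.42 to 3.35 for dps-mir-274, -0.29 to 1.68 for dps-mir-315 and -2.28 to 4.01 for dps-mir-219. In these fits the sex left with 1 sample has a single run, so that run and sex are partly mixed, and the lone sample is assumed to vary like the others. The negative ends came without the second male sample, except for dps-mir-190, where it came without the second female sample. The median over the 84 tested microRNAs moved as well, from -0.40 without the second male sample to 0.97 without the second female sample.

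The 12 microRNAs called over all tested became 5 with limma-voom, 4 when the base mean had to reach 10, and 2 to 4 when a sample was left out. The paired model was compared with no replicate block, which called 9, of which 8 were among the 12. DESeq2 called 17. The cause of these changes was not tested. The summed level, as the mean log2 ratio of male to female over the 2 runs, was 0.86. It was 0.52 with DESeq2's size factors, 0.72 with total counts only, 0.45 with TMM factors from the filterByExpr microRNAs, 0.56 without dps-mir-284, 0.63 with total counts without the ovary microRNAs (added after seeing the data), and 0.60 to 1.13 when each sample was left out. Depth limits the first run most, where 6 of the 8 members had at most 10 reads in each library.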
